A study of Homo sapiens with 28 samples.

Results

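The enzymes that add and remove methyl and acetyl groups on histones were followed in 7 human acute myeloid leukaemia (AML) cell lines treated with a DNMT1 inhibitor. Members were chosen by a rule on gene names, set with earlier results of these data known. It covers every gene whose symbol begins with KDM, KMT, SETD, SUV39H, EHMT, NSD, PRMT, HDAC, SIRT or KAT followed by a digit, or by a letter and a digit, plus EZH1, EZH2, DOT1L, CREBBP and EP300. The rule took 77 of the 11676 genes tested, made up of 28 lysine methyltransferases, 17 lysine demethylases (KDM), 7 arginine methyltransferases (PRMT), 9 lysine acetyltransferases (KAT, CREBBP and EP300), 10 classical deacetylases (HDAC) and 6 sirtuins. HDAC11, KAT14, KDM4D, PRMT8, SETD1A and SIRT4 were not analysed here. Each gene was read from the probe set, a group of short probes to its transcript, with the highest mean over all 28 arrays. KDM5D is Y-linked; it was counted and tested, and no level of it is given. Not every member acts mainly on histones, since some of these enzymes (HDAC6, SETD3 and SIRT3 among them) are known for other substrates.

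The 7 AML lines, named in the labels, are THP1, SHI1, NOMO1, MOLM13, SKM1, GDM1 and SKNO1. They were plated 24 h beforehand and then kept for 96 h with 1 µM GSK3484862, a small molecule that blocks DNMT1, the enzyme that keeps up DNA methylation as cells divide, or with the solvent alone (0.1% DMSO). RNA of each line and treatment was read on 2 Affymetrix Human Genome U133 Plus 2.0 arrays, described as biological duplicates, which gives 14 treated and 14 control arrays. Every line is a single established culture, so a result concerns these 7 lines and not patients' cells. The myeloid markers SPI1 (8.85 to 10.48 over the arrays), CEBPA (8.69 to 13.85) LYZ (9.07 to 15.48) and MPO (6.84 to 15.59) were measured, as was the B cell gene CD79A (3.86 to 7.64); probe sets of different genes are not on a common scale, so these ranges are not set against each other.

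Histone lysine methylation is written by SET domain enzymes and DOT1L and removed by the KDM enzymes. Its effect depends on the residue: H3K4 methylation by the KMT2 enzymes marks active promoters and enhancers, whereas H3K9 methylation by SUV39H1 and SUV39H2 and H3K27 methylation by EZH2 mark silent chromatin, the state that DNA methylation also accompanies. Acetyltransferases such as CREBBP and EP300 add acetyl groups that open chromatin, and HDAC enzymes and sirtuins remove them. Several of these enzymes matter in AML: KMT2A is a frequent partner of leukaemic gene fusions, and DOT1L, EZH2 and KDM1A have been drug targets.

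Levels below are the deposited log2 values, and a change is the mean of the 2 treated arrays minus the mean of the 2 DMSO arrays of a line, so a change of 1 is a doubling of signal. A gene was called at a Benjamini-Hochberg adjusted p (limma, over all genes tested) below 0.05, and its average change is the mean of its 7 within-line changes, given ± SE. The SE and adjusted p of an average come from the scatter between duplicate arrays. They do not measure the spread of the change between lines. In bulk RNA, fewer cells that express a gene and less of its RNA per cell cannot be told apart.

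On average over the lines the histone enzymes moved by small amounts. Of the 77 members, 16 rose (20.8%) and 22 fell (28.6%), against 23.2% of all genes called up and 28.6% called down; the members were thus called about as often as other genes. The median size of a member's average change, either way, was 0.126, against 0.138 over all genes, and KDM7A alone reached 0.5. Direction of these averages was uneven by role: 7 of 17 demethylases rose and 1 fell (median change 0.12), whereas 11 of 28 lysine methyltransferases fell and 4 rose (median -0.07). Median changes were -0.04 for the arginine methyltransferases, -0.08 for the acetyltransferases, 0.04 for the HDAC genes and -0.07 for the sirtuins, beside -0.02 for all genes tested. The split by role was not shared by every line. Within lines the demethylase median ran from 0.25 in GDM1 to -0.06 in NOMO1. The lysine methyltransferase median ran from 0.04 in SKM1 to -0.13 in SKNO1. Among the demethylase rises, those of KDM4A, KDM4B, KDM5B and KDM6A were not called without GDM1. These are descriptions of the families, and no test set one family against another. When the 7 lines rather than the arrays were taken as the units of the test, 0 rises and 3 falls were called, those of KDM1A, PRMT5 and SIRT3.

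**Figure D1:**
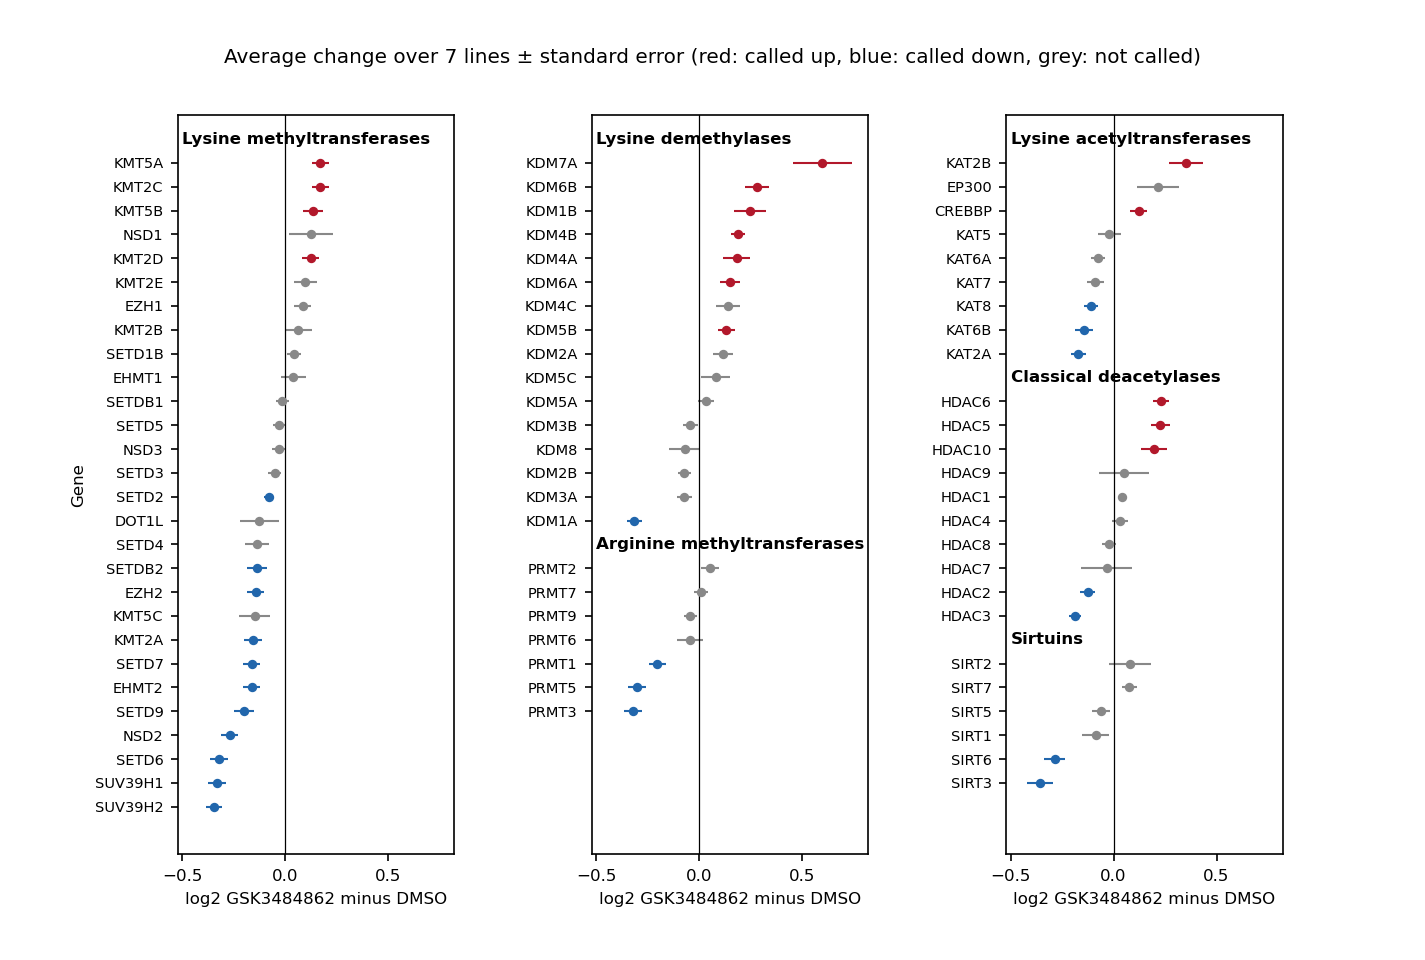
Average change of log2 signal (GSK3484862 minus DMSO, mean of 7 lines) for 76 members grouped by family; bars are standard errors, red points were called up, blue called down and grey not called at an adjusted p of 0.05. Most demethylases sit to the right of 0, with KDM7A farthest at 0.60, and most called lysine methyltransferases to the left, down to -0.35 for SUV39H2.

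The promoters of 4 members are shown as examples chosen after their values were seen. SETD6 and KDM6A each lay near the bottom of the scale in a single line. KAT2B had its lowest level in GDM1, near the bottom of the scale, and was called up there. That call was lost without DMSO replicate 1. KDM7A had the largest average rise. DNMT1 copies methylation at CG dinucleotides, which stand in capitals. Each sequence is the 250 bases before the annotated start, 5′ to 3′ in the direction of transcription, from RefSeq on GRCh38.p14. SETD6 lies at chr16:58515267-58515516 on the plus strand (26 CG), KDM6A at chrX:44872938-44873187 on the plus strand (27 CG), KAT2B at chr3:20040196-20040445 on the plus strand (33 CG) and KDM7A at chr7:140176984-140177233 on the minus strand (50 CG).
SETD6: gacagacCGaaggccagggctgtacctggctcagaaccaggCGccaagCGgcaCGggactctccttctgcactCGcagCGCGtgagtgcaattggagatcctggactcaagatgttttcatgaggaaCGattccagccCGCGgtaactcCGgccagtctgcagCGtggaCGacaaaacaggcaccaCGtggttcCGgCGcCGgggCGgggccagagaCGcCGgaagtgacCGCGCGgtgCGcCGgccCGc
KDM6A: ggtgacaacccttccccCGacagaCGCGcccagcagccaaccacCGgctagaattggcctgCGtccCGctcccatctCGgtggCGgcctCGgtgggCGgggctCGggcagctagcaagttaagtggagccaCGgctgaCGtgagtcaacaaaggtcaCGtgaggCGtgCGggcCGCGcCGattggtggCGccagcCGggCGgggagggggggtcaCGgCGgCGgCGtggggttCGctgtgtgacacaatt
KAT2B: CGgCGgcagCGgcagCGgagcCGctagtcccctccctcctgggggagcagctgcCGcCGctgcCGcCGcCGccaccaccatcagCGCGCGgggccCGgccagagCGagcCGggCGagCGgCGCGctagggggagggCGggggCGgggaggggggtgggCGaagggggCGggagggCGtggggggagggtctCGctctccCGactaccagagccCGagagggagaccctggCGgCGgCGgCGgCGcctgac
KDM7A: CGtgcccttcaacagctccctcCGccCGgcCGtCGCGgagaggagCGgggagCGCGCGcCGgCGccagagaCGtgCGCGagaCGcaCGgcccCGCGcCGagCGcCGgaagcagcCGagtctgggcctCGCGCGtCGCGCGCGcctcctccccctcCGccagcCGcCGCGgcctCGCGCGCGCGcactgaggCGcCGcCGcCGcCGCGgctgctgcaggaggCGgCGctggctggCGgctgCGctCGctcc
DNA methylation was not measured in these arrays. Promoter windows of 300 bases (250 before to 50 after the start) matched 69 of the 76 members shown, in 104 windows. Their median number of CG was 29.5, against 25 for the windows of genes tested and 14 for all windows in the table. At least 10 CG were present in 90.4% of member windows, 81.7% of windows of tested genes and 56.4% of all windows. The windows held a median of 37.5 CG for members that rose, 29 for members that fell and 28 for members not called. The E2F-type motifs TTTGGCGC and TTTCCCGC, searched on both strands, occurred in 5 of the 104 member windows (4.81%), against 3.4% of windows of tested genes; the 5 belong to EZH2, KDM1B, NSD2, PRMT7 and SIRT6.

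Among the lysine methyltransferases, the H3K9 enzymes SUV39H1 and SUV39H2 fell most together. SUV39H1 in GDM1 read 9.33 and 9.24 with DMSO and 8.32 and 8.29 with inhibitor, a change of -0.98 (adjusted p = 6.9e-06). Its treated arrays were also below both DMSO arrays in MOLM13 (9.27 and 9.39 to 8.95 and 8.93) and SKM1 (9.30 and 9.53 to 8.95 and 9.13), with changes of -0.39 and -0.37. Without single arrays of the line these changes were -0.45 to -0.33 in MOLM13 and -0.49 to -0.25 in SKM1, and neither call was kept throughout. In SHI1 the arrays overlapped, at 9.36 and 9.41 with DMSO and 9.54 and 9.39 with inhibitor. SUV39H2 went from 10.88 and 10.89 to 9.94 and 10.00 in GDM1 (-0.91, adjusted p = 2.56e-06), from 11.12 and 11.00 to 10.44 and 10.57 in MOLM13 and from 10.24 and 10.16 to 9.85 and 9.78 in THP1, without overlap in any of these 3 lines. In NOMO1 it stayed at 11.09 and 10.98 against 10.96 and 11.05. The average changes were -0.33 ± 0.04 for SUV39H1 (adjusted p = 1.16e-05) and -0.35 ± 0.04 for SUV39H2 (adjusted p = 1.21e-06). The other H3K9 enzymes moved less: EHMT2, which adds lower degrees of H3K9 methylation, fell by 0.16 on average, SETDB2 fell by 0.14, and EHMT1 (0.04) and SETDB1 (-0.01) were not called.

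NSD2, which dimethylates H3K36, went from 10.74 and 10.45 to 9.73 and 9.90 in GDM1 (-0.78, adjusted p = 3.13e-05) and from 11.08 and 10.99 to 10.61 and 10.58 in THP1 (-0.44, adjusted p = 0.0122). Without single THP1 arrays the change there was -0.49 to -0.40, and the call was lost in most of these fits. NSD2 duplicates nearly coincided with controls in NOMO1, at 11.31 and 11.40 against 11.33 and 11.31. The average was -0.27 ± 0.04 (adjusted p = 4.05e-05). SETD2, the H3K36 trimethylase, fell by 0.08 on average. NSD1 (0.13) and NSD3 (-0.03) were not called at the probe set chosen for each gene. In a fit of all single-symbol probe sets, a dimmer NSD1 probe set was called down (-0.19, adjusted p = 0.036). Every NSD3 probe set had a negative average change. Among the dimmer ones, falls of -0.19 (adjusted p = 5.36e-05), -0.30 (adjusted p = 0.00259) and -0.30 (adjusted p = 0.0433) were called.

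EZH2, the main catalytic subunit of the Polycomb repressive complex PRC2, was called in GDM1 and in no other line, falling from 11.15 and 11.13 to 10.47 and 10.33 (-0.74, adjusted p = 6.61e-05). Its treated arrays also lay below controls in THP1 (11.86 and 11.92 to 11.72 and 11.65), among 4 lines without overlap, but the changes outside GDM1 were small and not called. In SKM1 it read 10.55 and 10.80 with DMSO and 10.70 and 11.09 with inhibitor (0.22, adjusted p = 0.156), so the arrays overlapped and the sign was opposite. The average of -0.14 ± 0.04 (adjusted p = 0.00891) became -0.04 (adjusted p = 0.475) without GDM1. EZH1, its paralogue in PRC2, rose in GDM1 (8.86 and 8.97 to 9.40 and 9.06, 0.32, adjusted p = 0.0353) and had an average of 0.08 ± 0.04 that was not called (adjusted p = 0.105). The EZH1 call in GDM1 was lost in most fits without a single array of that line (change 0.14 to 0.49). The other EZH1 probe set averaged -0.01 over the lines, with group means of 7.86 and 8.17 in GDM1.

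SETD6, a methyltransferase with known non-histone substrates, was at the bottom of the scale in one line and fell in 4 of the others. In GDM1 it read 2.41 on both DMSO arrays and 2.44 and 2.59 with inhibitor, whereas the DMSO group means of the other 6 lines ran from 7.12 in THP1 to 8.82 in SKNO1. A different SETD6 probe set was also lowest in GDM1, with group means of 2.36 and 3.02. In most of the other lines SETD6 fell: 8.77 and 8.87 to 8.17 and 8.37 in MOLM13, 8.63 and 8.81 to 8.17 and 8.01 in SKM1, 7.08 and 7.15 to 6.47 and 6.90 in THP1, and 8.15 and 8.28 to 7.69 and 7.88 in NOMO1. These 4 falls were called, with changes of -0.55, -0.63, -0.43 and -0.44. The THP1 change was -0.22 without the treated array of replicate 1, and the call was lost. Without single NOMO1 arrays the change there was -0.53 to -0.34, and that call was lost in some of these fits. SKNO1 went from 8.79 and 8.85 to 8.40 and 8.57 (-0.33), without overlap but not called, and SHI1 overlapped, at 8.71 and 8.81 against 8.81 and 8.78. The average, GDM1 included, was -0.32 ± 0.05 (adjusted p = 2.07e-05). Group means of the other SETD6 probe set fell in MOLM13 (8.41 to 7.85) and SKM1 (8.65 to 7.92). They also fell in THP1 (6.09 to 5.81), SKNO1 (8.17 to 7.77) and SHI1 (8.49 to 8.11). In NOMO1 that probe set barely moved, from 7.14 to 7.06.

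KMT5A, which monomethylates H4K20, rose in SKM1 from 8.46 on both DMSO arrays to 9.12 and 9.33 (0.77, adjusted p = 6.7e-05). No other line had a called change of KMT5A, and its average of 0.17 became 0.07 (adjusted p = 0.199) without SKM1. The KMT2 enzymes, which methylate H3K4, split: KMT2C (0.17) and KMT2D (0.12) rose on average, KMT2A fell by 0.16 ± 0.05 (adjusted p = 0.0082), and KMT2B (0.06) and KMT2E (0.10) were not called. KMT2A was called in no single line, and all 8 of its probe sets had a negative average change. DOT1L, the H3K79 methyltransferase, was not called (-0.13 ± 0.09, adjusted p = 0.286); its treated GDM1 duplicates lay at 7.35 and 6.06, on either side of the DMSO values of 7.12 and 6.74. Of the remaining members of this family, SETD9 (-0.20) and SETD7 (-0.16) fell, KMT5B (0.14) rose, and SETD1B, SETD3, SETD4, SETD5 and KMT5C did not pass, with average changes from -0.15 to 0.04.

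Called rises outnumbered called falls among the demethylases, 7 against 1. KDM7A, a demethylase of H3K9 and H3K27, had the largest average rise of any member, 0.60 ± 0.14 (adjusted p = 0.00238). In SKM1 it read 6.25 and 7.96 with DMSO and 9.06 and 9.19 with inhibitor (2.02, adjusted p = 0.000815). Those DMSO duplicates were far apart, and leaving out 1 SKM1 array at a time gave changes from 1.16 to 2.88. Leaving out either DMSO array also takes their scatter out of the fit, so a call kept that way is no check on it. NOMO1 went from 5.60 and 5.16 to 6.70 and 6.03 (0.99, adjusted p = 0.109) and MOLM13 from 5.38 and 4.82 to 5.91 and 5.60. In GDM1, THP1 and SKNO1 all arrays lay between 3.55 and 3.95, with overlapping groups. Without SKM1 the average was 0.36 (adjusted p = 0.00885). The dimmer KDM7A probe set gave group means of 4.04 and 5.60 in SKM1.

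KDM6B and KDM6A remove H3K27 methylation, the mark that EZH2 writes. KDM6B went from 5.95 and 6.26 to 6.91 and 6.88 in GDM1 (0.79, adjusted p = 0.000925) and from 7.28 and 7.41 to 7.98 and 7.78 in NOMO1 (0.53, adjusted p = 0.0386). The treated arrays of both lines were above their controls, but in MOLM13 and THP1 all values lay between 6.81 and 6.90. Leaving out single NOMO1 arrays gave KDM6B changes from 0.43 to 0.63 there, and the call was lost each time. Its average was 0.28 ± 0.06 (adjusted p = 0.000868), and a dimmer probe set gave -0.03. KDM6A read 2.55 on all 4 THP1 arrays, far below the 8.46 to 11.01 of the other lines. Both other KDM6A probe sets were likewise lowest in THP1, with group means of 2.13 and 2.15 for one and 3.28 and 3.36 for the other. KDM6A rose in NOMO1 from 10.25 and 10.11 to 10.62 and 10.57 (0.41, adjusted p = 0.0457), a call lost without any of the 4 NOMO1 arrays. Its average of 0.15 ± 0.05 (adjusted p = 0.0172) was not called without GDM1 (0.12) or without NOMO1 (0.10).

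KDM1A, also known as LSD1, which removes H3K4 methylation within the CoREST complex, was the one demethylase that fell on average (-0.32 ± 0.04, adjusted p = 2.92e-06). Both treated arrays were below both DMSO arrays in all 7 lines. The largest falls were in MOLM13 (11.75 and 11.66 to 11.05 and 11.30, -0.53) and GDM1 (11.98 and 11.80 to 11.30 and 11.50, -0.49), and the smallest in SHI1 (11.48 and 11.40 to 11.34 and 11.36, -0.09). GDM1, MOLM13 and NOMO1 were called, NOMO1 at -0.32 and, without DMSO replicate 2, at -0.21 (adjusted p = 0.385). Its homologue KDM1B moved the other way, with an average of 0.25 ± 0.08 (adjusted p = 0.0132) and no line called.

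KDM4B and KDM4A, demethylases of H3K9 and H3K36, rose on average by 0.19 ± 0.04 (adjusted p = 0.000301) and 0.18 ± 0.07 (adjusted p = 0.0321). KDM4B went from 10.56 and 10.59 to 11.41 and 11.32 in GDM1 (0.79, adjusted p = 6.12e-06) and from 9.87 and 10.07 to 10.42 and 10.26 in MOLM13 (0.37, adjusted p = 0.00668), while SKM1 changed by -0.16. Fits without single MOLM13 arrays gave KDM4B changes from 0.27 to 0.47 there, and the call was lost in some of them. Without GDM1 the KDM4B average was 0.09 (adjusted p = 0.0898). KDM4A depended on several arrays and lines: its average was 0.13 without GDM1 (adjusted p = 0.138), 0.13 without SHI1 (adjusted p = 0.143), 0.17 without MOLM13 (adjusted p = 0.0912), and 0.15 to 0.18 in 7 of the fits without a single array in which its call was lost.

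KDM5B, an H3K4 demethylase, changed in opposite directions in different lines. In NOMO1, where it was lowest, it went from 6.91 and 7.00 to 7.94 and 7.93 (0.98, adjusted p = 2.31e-05). In SKM1 it went from 11.04 and 11.19 to 10.60 and 10.85 (-0.39, adjusted p = 0.0134), and in GDM1 from 10.69 and 10.63 to 10.98 and 10.93 (0.29, adjusted p = 0.0491). Groups did not overlap in any of these 3 lines. Without single arrays of the line, KDM5B changed by 0.93 to 1.03 in NOMO1 and by -0.51 to -0.27 in SKM1. In GDM1 such fits gave 0.26 to 0.33. The GDM1 call was lost each time and the SKM1 call in some of these fits. The average of 0.13 ± 0.04 (adjusted p = 0.0149) was -0.01 without NOMO1 (adjusted p = 0.851). It was -0.18 (adjusted p = 0.228) from the single probe set left when those shared between transcripts were set aside. That probe set lay near the bottom of the scale, at a mean level of 3.57. The other bright KDM5B probe sets averaged 0.18 and 0.16, neither of them called. KDM3A, an H3K9 demethylase, likewise rose in GDM1 (0.32, adjusted p = 0.0146) and fell in SKM1 (-0.51, adjusted p = 0.000743), with an average of -0.07 that was not called. Without single arrays of the line, KDM3A changed by 0.31 to 0.34 in GDM1 and by -0.63 to -0.39 in SKM1. The GDM1 call was lost in most of these fits. KDM2A (0.12), KDM2B (-0.07), KDM3B (-0.04), KDM4C (0.14), KDM5A (0.03), KDM5C (0.08) and KDM8 (-0.07) were not called on average either.

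**Figure D2:**
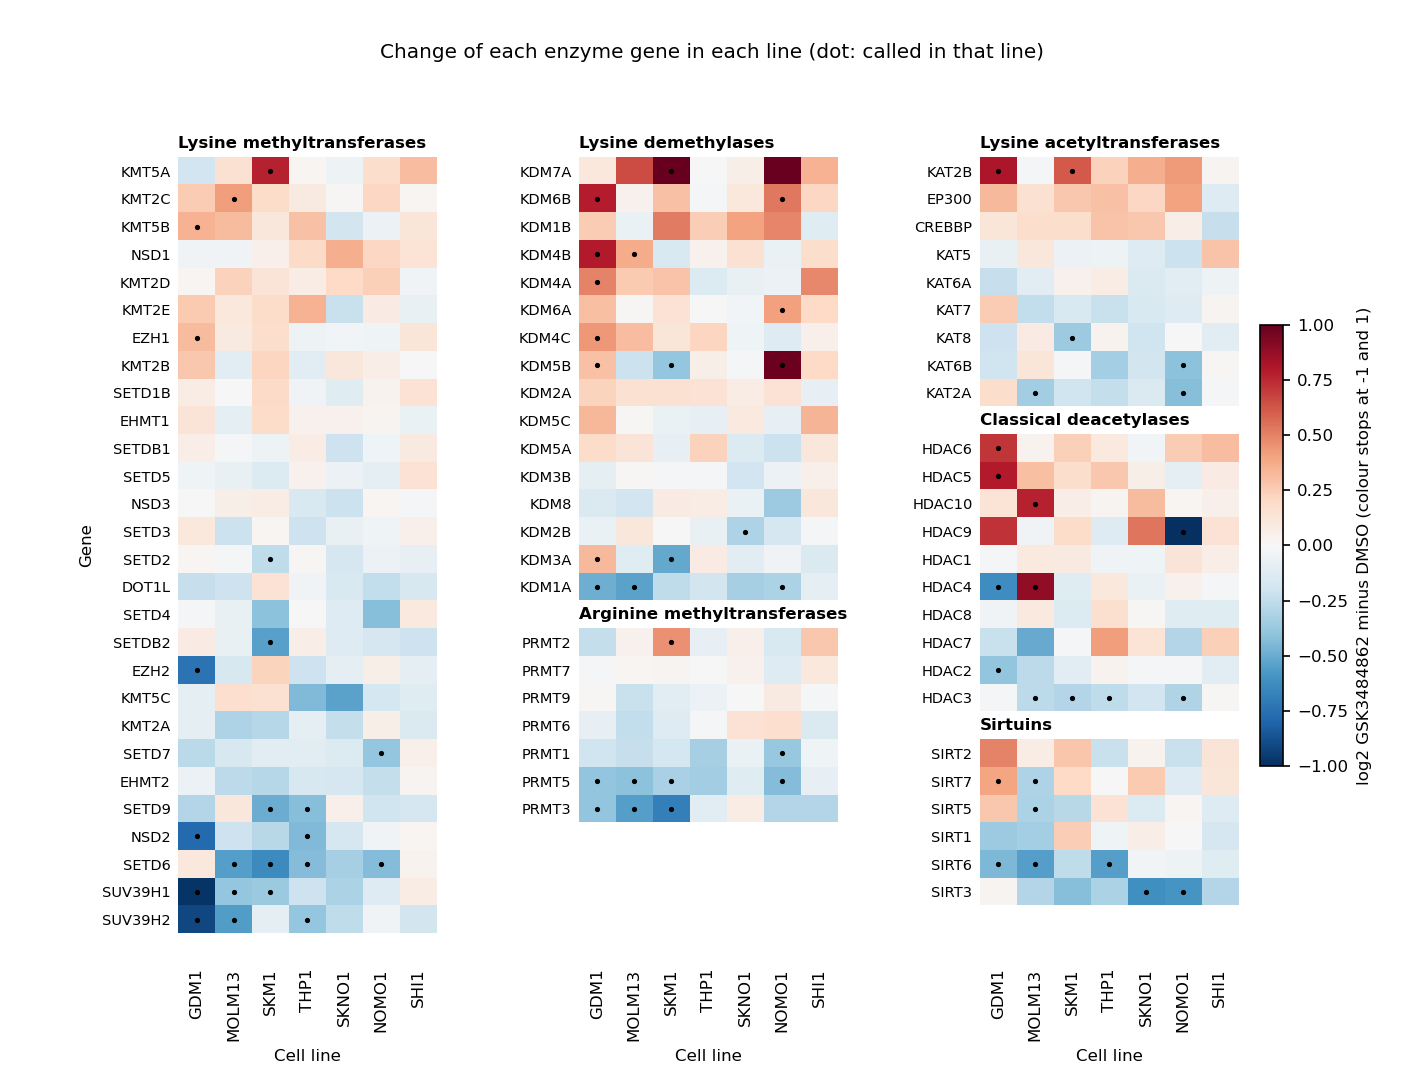
Change of log2 signal (GSK3484862 minus DMSO) of 76 members in each of the 7 lines, with lines as columns, members as rows, red for a rise and blue for a fall (colour stops at -1 and 1); a dot marks a called change. GDM1, MOLM13, SKM1 and NOMO1 hold most dots and SHI1 holds 0.

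All 3 called arginine methyltransferases fell. PRMT5, the main enzyme of symmetric dimethylation, had both treated arrays below both DMSO arrays in all 7 lines, with an average of -0.30 ± 0.04 (adjusted p = 2.15e-05). Its 4 called lines were NOMO1 (11.71 and 11.94 to 11.34 and 11.45, -0.44), MOLM13 (12.41 and 12.40 to 11.97 and 12.01, -0.41), GDM1 (11.72 and 11.54 to 11.13 and 11.34, -0.39) and SKM1 (11.60 and 11.93 to 11.32 and 11.57, -0.32). The SKM1 change was -0.16 without DMSO replicate 2 (adjusted p = 0.403), -0.19 without treated replicate 1 (adjusted p = 0.332) and -0.49 without DMSO replicate 1. THP1 changed about as much without being called (12.23 and 12.14 to 11.84 and 11.84, -0.34). PRMT3, whose best known substrate is a ribosomal protein, averaged -0.32 ± 0.05 (adjusted p = 1.86e-05) and fell in SKM1 (10.96 and 10.46 to 10.08 and 9.97, -0.69), MOLM13 (11.00 and 10.86 to 10.36 and 10.39, -0.55) and GDM1 (10.58 and 10.62 to 10.29 and 10.12, -0.39). The DMSO duplicates of SKM1 were far apart, and the change there was -0.43 without DMSO replicate 1 and -0.94 without DMSO replicate 2. Only SKNO1 showed overlapping arrays (9.24 and 9.32 to 9.24 and 9.46). PRMT1, the main enzyme of asymmetric dimethylation, averaged -0.20 ± 0.04 (adjusted p = 0.000491) and had a negative change in every line. PRMT2, PRMT6, PRMT7 and PRMT9 were not called, with averages from -0.04 to 0.05, although PRMT2 rose in SKM1 (0.46, adjusted p = 0.00652; 0.25 and adjusted p = 0.118 without DMSO replicate 1).

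Among the acetyltransferases the paralogues KAT2B and KAT2A moved apart. KAT2B rose by 0.35 ± 0.08 on average (adjusted p = 0.00157) and KAT2A fell by 0.17 (adjusted p = 0.000993). KAT2B went from 2.99 and 3.79 to 4.16 and 4.24 in GDM1 (0.81, adjusted p = 0.00696), the line in which it was lowest, and from 9.20 and 8.99 to 9.71 and 9.71 in SKM1 (0.61, adjusted p = 0.04). The DMSO duplicates of GDM1 were far apart, and leaving out single GDM1 arrays gave changes from 0.41 to 1.21. The GDM1 call was lost at 0.41, without DMSO replicate 1. All GDM1 values of KAT2B lay near the bottom of the scale (lowest value 2.13). Leaving out single SKM1 arrays gave 0.51 to 0.72 in SKM1, and the call there was lost each time. Values in MOLM13 overlapped (7.16 and 7.33 against 7.16 and 7.30). KAT2A was called down in NOMO1 (-0.43) and MOLM13 (-0.35) and had a positive change in GDM1 (0.18).

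CREBBP and EP300, the paired co-activator acetyltransferases of H3K27, had positive average changes of 0.12 ± 0.04 (adjusted p = 0.018) and 0.22 ± 0.10 (adjusted p = 0.083), of which CREBBP alone was called at the probe set chosen for each gene. Probe sets differed for both genes: in a fit of all single-symbol probe sets, the other EP300 probe set, of nearly the same level, averaged 0.23 ± 0.07 (adjusted p = 0.00995) and the other CREBBP probe set -0.06 (adjusted p = 0.397). The choice of probe set thus decides which of the pair is called. The duplicates of the chosen EP300 probe set were wide, for example 10.69 and 10.06 on the treated GDM1 arrays. At the chosen probe sets neither was called in any line, and both had negative changes in SHI1 alone. The CREBBP average was 0.10 and not called without THP1 (adjusted p = 0.0977) or SKNO1 (adjusted p = 0.0544), and 0.03 over the mean of its probe sets (adjusted p = 0.485). KAT6B (-0.14) and KAT8 (-0.11) fell on average, and KAT5 (-0.02), KAT6A (-0.08) and KAT7 (-0.09) were not called.

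The class I deacetylases HDAC3 and HDAC2 fell, and HDAC1 was not called. HDAC3, the deacetylase of the NCoR and SMRT complexes, averaged -0.19 ± 0.03 (adjusted p = 5.85e-05) and was called in MOLM13 (11.77 and 11.80 to 11.57 and 11.48), SKM1 (11.50 and 11.57 to 11.30 and 11.18), THP1 (11.39 and 11.38 to 11.09 and 11.17) and NOMO1 (11.52 and 11.74 to 11.31 and 11.35). These 4 falls were small, from -0.25 to -0.30, and free of overlap. Leaving out single arrays of the line gave -0.215 to -0.307 in MOLM13 and -0.23 to -0.36 in SKM1. It gave -0.21 to -0.29 in THP1 and -0.19 to -0.41 in NOMO1. In each of the 4 lines the call was lost in some or all of these fits. HDAC2 fell in GDM1 from 13.51 and 13.60 to 13.20 and 13.12 (-0.39, adjusted p = 0.00468). Its average of -0.13 was -0.08 without GDM1 (adjusted p = 0.122). HDAC1 averaged 0.04 ± 0.02 (adjusted p = 0.112), and HDAC8 averaged -0.02.

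The class II deacetylases varied most by line. HDAC4 rose in MOLM13 from 9.09 and 8.99 to 9.98 and 9.88 (0.89, adjusted p = 5.8e-06) and fell in GDM1 from 7.39 and 7.54 to 6.86 and 6.84 (-0.62, adjusted p = 0.000144). The groups did not overlap in either line, and the other HDAC4 probe set moved the same way, from a mean of 7.14 to 8.40 in MOLM13 and from 5.55 to 4.46 in GDM1. The opposite changes left an average of 0.03 ± 0.04 (adjusted p = 0.535). HDAC5 and HDAC6 rose in GDM1, HDAC5 from 9.14 and 9.03 to 9.95 and 9.82 (0.80, adjusted p = 9.43e-05) and HDAC6, the cytoplasmic tubulin deacetylase, from 8.93 and 8.81 to 9.64 and 9.54 (0.71, adjusted p = 3.69e-05). Each averaged 0.23, and without GDM1 HDAC5 was 0.13 (adjusted p = 0.0528) and HDAC6 0.15 (adjusted p = 0.00937).

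HDAC9 fell in NOMO1 from 8.01 and 8.00 to 7.18 and 6.69 (-1.07, adjusted p = 0.0434). That was the largest fall in any line among the 76 members shown, but the call was lost without any of the 4 NOMO1 arrays (-0.83 to -1.31). GDM1 went the other way, 6.83 and 7.10 to 7.88 and 7.50 (0.73, not called), and the average was 0.05 ± 0.12. The dimmer HDAC9 probe set could not show the NOMO1 fall. Its means there were 2.14 with either treatment, at the bottom of the scale (lowest value 2.13). In MOLM13 its means went from 4.43 to 6.39, where the chosen probe set changed by -0.04. Its average rise was called (0.42 ± 0.16, adjusted p = 0.0369 in the fit of all single-symbol probe sets). HDAC10, a polyamine deacetylase read near the bottom of the scale (3.07 to 4.41 over all arrays), rose in MOLM13 from 3.42 and 3.46 to 4.01 and 4.41 (0.77, adjusted p = 0.00207). Its average of 0.20 ± 0.06 (adjusted p = 0.0137) was 0.10 without MOLM13 (adjusted p = 0.218), 0.13 after quantile normalization (adjusted p = 0.0692) and -0.17 (adjusted p = 0.0929) from its other probe set. That other HDAC10 probe set was dimmer still, at a mean level of 2.5. HDAC7 was not called (-0.03).

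Of the sirtuins, the NAD-dependent deacylases, SIRT3 and SIRT6 fell. SIRT3, which works mainly in mitochondria, had the largest average fall of any member, -0.36 ± 0.06 (adjusted p = 0.000132). It went from 6.39 and 6.86 to 6.04 and 5.98 in SKNO1 (-0.62, adjusted p = 0.0332) and from 8.21 and 8.56 to 7.74 and 7.86 in NOMO1 (-0.59, adjusted p = 0.0272). Each of these calls was kept in 1 of the 4 fits that left out an array of the line, and the SKNO1 change was -0.38 (adjusted p = 0.3) without DMSO replicate 2. Treated arrays lay below controls in 6 lines, GDM1 being the exception (8.30 and 8.27 against 8.35 and 8.27). A different SIRT3 probe set gave an average of -0.14 (adjusted p = 0.31). SIRT6, an H3K9 deacetylase, averaged -0.29 ± 0.05 (adjusted p = 0.000233) and fell in MOLM13 (8.80 and 9.18 to 8.51 and 8.37), THP1 (8.28 and 8.12 to 7.73 and 7.58) and GDM1 (7.69 and 7.69 to 7.35 and 7.13). The MOLM13 change of -0.55 was -0.36 (adjusted p = 0.106) without DMSO replicate 2. SIRT7 rose in GDM1 (0.39) and fell in MOLM13 (-0.31). Without single arrays of the line, these changes were 0.23 to 0.55 in GDM1 and -0.37 to -0.25 in MOLM13. Neither call was kept in all of these fits. SIRT1 (-0.09), SIRT2 (0.08), SIRT5 (-0.06) and SIRT7 (0.08) were not called on average.

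**Figure D3:**
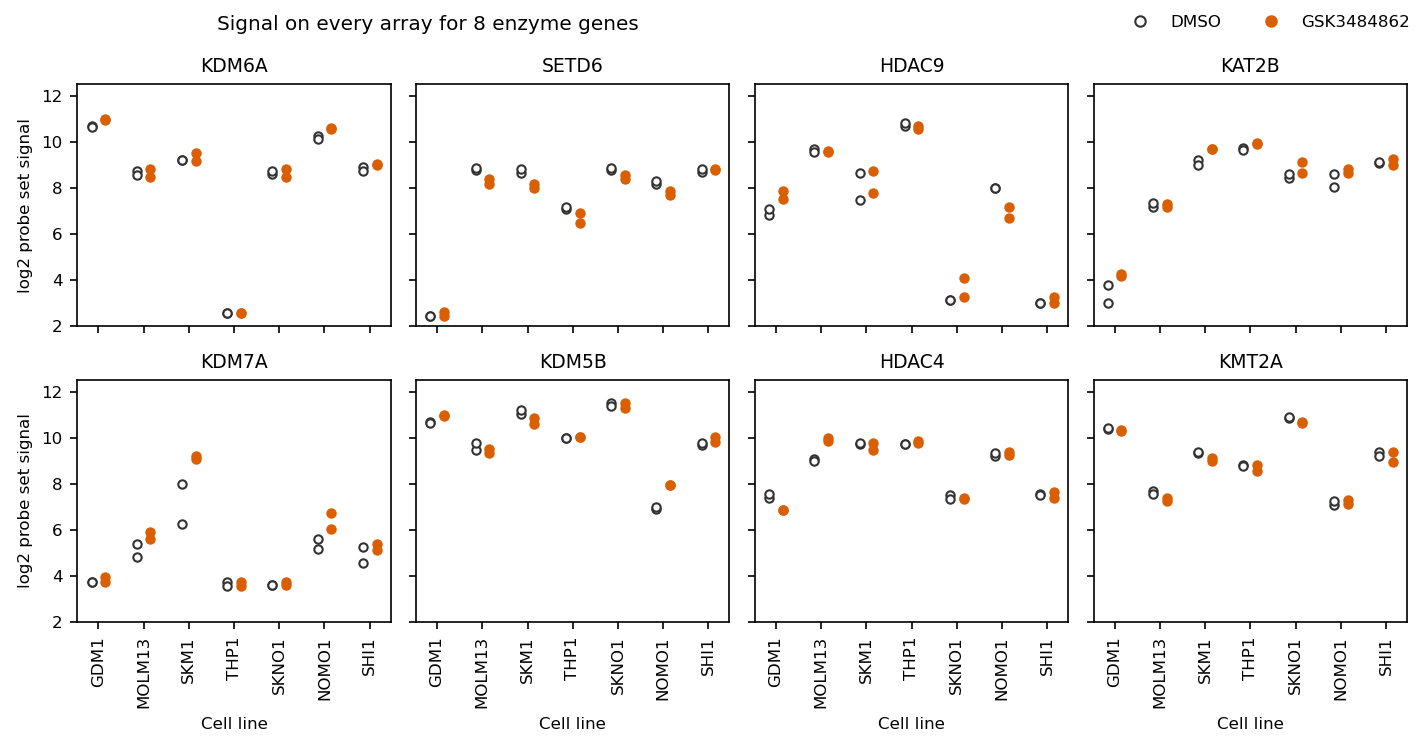
Log2 signal of 8 members on every array, by line, with open points for DMSO and filled points for GSK3484862. KDM7A in SKM1 rises from 6.25 and 7.96 to 9.06 and 9.19, and KDM6A sits at 2.55 on the 4 THP1 arrays.

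Line by line, the called members were as follows, each beside the share of all genes called. In GDM1, 12 members rose against 13.3% of all genes and 10 fell against 20.5%. In MOLM13, 4 rose against 13.7% and 11 fell against 15.4%. In SKM1, 4 rose against 14.1% and 11 fell against 14%. As shares of the members these were 15.6% and 13% in GDM1 and 5.19% and 14.3% in both MOLM13 and SKM1. No test compared these shares with those of all genes. THP1 had 0 rises (5.4% of all genes) and 6 falls (8.3%), and SKNO1 had 0 rises (2.96%) and 2 falls (3.12%), those of SIRT3 and KDM2B. NOMO1 had 3 rises (4.21%) and 10 falls (7.55%), a member share of 13% for the falls. SHI1 had 0 rises (2.52%) and 0 falls (0.899%) by limma. At an unadjusted p of 0.05, 4 of the 77 members rose and 2 fell in SHI1, against 1022 and 613 of all 11676 genes. At the same unadjusted level THP1 had 5 member rises against 1307 over all genes, and SKNO1 2 against 945. Each of these counts was a smaller share of the members than of all genes.

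Few of these line calls were kept in every fit without a single array of the line. A group left with 1 array adds nothing to the estimated spread. A kept call is therefore a weak check where the duplicates were far apart, as with DMSO for KDM7A and PRMT3 in SKM1. Of 73 called changes, 23 stayed called without each of the line's own 4 arrays in turn: 11 in GDM1, 6 in MOLM13, 5 in SKM1 and 1 in NOMO1. Those in GDM1 were the rises of HDAC5, HDAC6, KDM4B and KDM6B and the falls of SUV39H1, SUV39H2, NSD2, EZH2, HDAC4, KDM1A and HDAC2. In MOLM13 they were HDAC4 and HDAC10 upward and SUV39H2, PRMT3, SETD6 and KDM1A downward, in SKM1 KDM7A and KMT5A upward and PRMT3, SETD6 and KDM3A downward, and in NOMO1 the rise of KDM5B. The NOMO1 falls also moved with scaling, from 10 to 1 with each array centred on its median and to 6 after quantile normalization, while all genes in NOMO1 went from 491 up and 882 down to 563 and 538 under centring. With each line fitted on its own 4 arrays, 12 members were called in GDM1 and 0 in SKM1, THP1, SKNO1 and NOMO1. Duplicates scattered most in SKM1, and the main fit shares the spread over all lines.

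Across the lines 42 members were called in at least 1 line and 35 in none. The matching share of all genes is not given here, so this count is not read as a trait of the members. SETD6, PRMT5 and HDAC3 were called in 4 lines. A change of the same sign in all 7 lines was seen for 7 members (9.09%, against 16.4% of all genes): KMT2C and HDAC10 upward, and KDM1A, PRMT1, PRMT5, SIRT6 and SUV39H2 downward. HDAC4, KDM3A, KDM5B and SIRT7 were called up in one line and down in another, which is 5.19% of members and 5.25% of all genes. Of these, HDAC4 alone kept its calls both ways in the fits without single arrays of the line.

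The change itself differed between lines for 18 members by the F-test, or 23.4%, against 37.5% of all genes. The smallest adjusted p-values were those of HDAC4 (3.46e-05), KDM5B (9.68e-05), KDM4B (0.000538), SUV39H2 (0.00128) and KMT5A (0.00251). Each has a line that stands apart in the values above: MOLM13 and GDM1 for HDAC4, NOMO1 for KDM5B, GDM1 for KDM4B and SUV39H2, and SKM1 for KMT5A. Of the 39 members without an average call, 5 were in this group: HDAC4, KDM3A, PRMT2, SIRT5 and SIRT7.

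With DMSO alone most members differed more between lines than the treatment moved them. Levels differed between lines for 75 members, against 97% of all genes; SUV39H1 (adjusted p = 0.136) and HDAC10 (adjusted p = 0.654) were the ones not called. KDM6A had the widest range of DMSO means, from 2.55 in THP1 to 10.69 in GDM1, followed by HDAC9, from 2.98 in SHI1 to 10.76 in THP1. SETD6 ran from 2.41 in GDM1 to 8.82 in SKNO1, KAT2B from 3.39 in GDM1 to 9.70 in THP1, and KDM5B from 6.96 in NOMO1 to 11.43 in SKNO1. HDAC9 was low in SKNO1 too, at 3.12 on both DMSO arrays, so it was near the bottom of the scale in a pair of lines. KMT2A ran from 7.15 in NOMO1 to 10.89 in SKNO1. The narrowest ranges were 0.27 for HDAC10, 0.35 for SUV39H1 and 0.51 for HDAC3. Treatment moved HDAC10 in MOLM13 (0.77) and SUV39H1 in GDM1 (-0.98) by more than these ranges.

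Partner lists give the setting of these changes. Of 14 COMPASS and KMT2 complex subunits 1 rose and 7 fell (median -0.08), led by MEN1, the menin scaffold that tethers KMT2A (-0.38), BOD1 (-0.27) and PAGR1 (-0.18). Of 11 PRC2 subunits 2 rose and 5 fell (median -0.08), with EPOP at -0.53, PHF19 at -0.31 and LCOR at 0.25. Of 22 HDAC complex subunits measured 2 rose and 7 fell (median -0.06), among them SAP30 of the Sin3 complex (-0.35), MTA3 of NuRD (-0.25) and RCOR1, the CoREST scaffold of KDM1A (0.20). RCOR1 and KDM1A thus had average changes of opposite sign.

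Of 42 acetyltransferase complex subunits 5 rose and 15 fell (median -0.07), with ING5 at -0.46, JADE3 at -0.37 and TAF5L at -0.37. Among 23 other histone methylation and acetylation enzymes measured 5 rose and 8 fell (median -0.03), including SMYD5 (-0.54), RIOX2 (-0.43) and GTF3C4 (-0.43). Of 37 readers of these marks measured 6 rose and 10 fell (median -0.02); L3MBTL3 (-0.48) fell and L3MBTL1 (0.42) and SP140 (0.40) rose. All of these medians lie within 0.1 of the -0.02 of all genes.

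S-phase and monocyte genes moved in the same samples as the enzymes. Of 46 S-phase genes measured, which serve DNA replication, 0 rose and 42 fell on average (median -0.30), with CHAF1B, EXO1 and GINS3 each at -0.47. Their median change was -0.91 in GDM1, -0.30 in MOLM13, -0.23 in SKM1, -0.26 in THP1, -0.19 in SKNO1, -0.09 in NOMO1 and -0.06 in SHI1. GDM1 was thus the line with the lowest S-phase median and also with the largest falls of SUV39H1, SUV39H2, NSD2 and EZH2. Of 23 monocyte genes measured 18 rose and 1 fell (median 0.55), with medians of 1.00 in SKM1, 0.52 in THP1, 0.43 in MOLM13, 0.20 in NOMO1, 0.10 in GDM1, 0.10 in SKNO1 and 0.07 in SHI1. The part of either gene group in the changes of the histone enzymes was not tested.

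**Figure D4:**
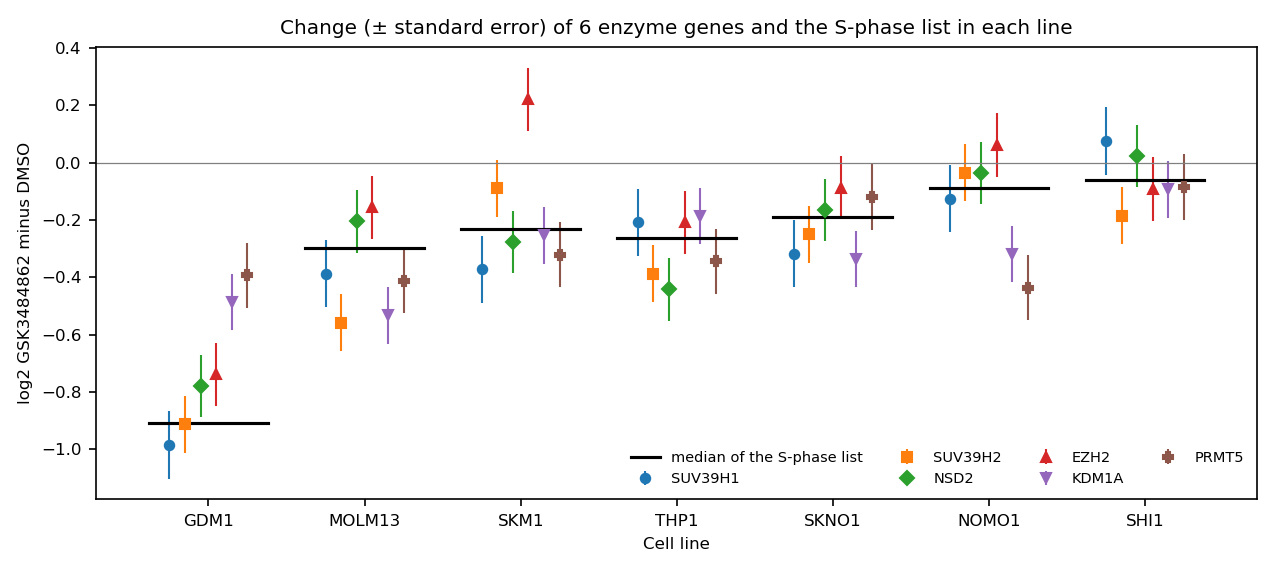
Change of log2 signal (GSK3484862 minus DMSO) in each line for SUV39H1, SUV39H2, NSD2, EZH2, KDM1A and PRMT5, as points with standard errors, and the median change of the S-phase list as black lines. KDM1A and PRMT5 lie below 0 in all 7 lines, whereas SUV39H1 reaches -0.98 in GDM1 and 0.08 in SHI1.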

How the data were processed

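RNA of 7 AML lines under 2 treatments was measured on 28 one-colour arrays (14 groups of 2). The deposited values are log2 signals of 27306 probe sets in a single table; limma is named in the submitters' processing notes without a version or role, and the sources used here do not give the background correction, summarisation or normalization. Array medians ran from 8.33 to 8.51 and duplicates correlated at 0.99 to 0.998. The standard deviation of a single array, taken from the duplicates over all genes, was 0.289 (DMSO) and 0.305 (inhibitor) in SKM1. In the other groups it ran from 0.161 to 0.233. The fit below shares a single spread per gene over all lines, so p-values in SKM1 can be too small. For arrays, the number of samples limits the precision.

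Probe sets with 1 symbol in the platform annotation (22580) were kept, and the one with the highest mean stood for each of 11676 genes. limma 3.58.1 in R 4.3.3 fitted 14 group means. Within-line changes, their average, an F-test of differences between the changes and an F-test of the DMSO means were adjusted (Benjamini-Hochberg) over all genes. The method was tested on simulated data. If duplicates share a culture, p-values measure only technical spread.

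The members and lists were chosen with earlier results of these data known. The text names the 12 largest average rises and falls, up to 2 called rises and falls a line, the 5 smallest F-test p-values, the 5 widest DMSO ranges, fixed genes of interest and up to 3 genes of each list; other members complete their families. Alternatives covered scaling, probe set choice, filter, variance prior, array weights, threshold, a replicate block, lines as units, each line's own arrays, and leaving out each array or line. Deviations of equally numbered arrays correlated at 0.372 in SKM1, 0.391 in SKNO1 and 0.309 in NOMO1, and from -0.0974 to 0.0856 in the other lines, so the numbers were not taken as pairs over the whole series.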

Additional observations from a re-analysis of the deposited data

Results flagged for a closer look

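For 18 histone enzymes the size or direction of the change differed between the 7 lines in limma's F-test (adjusted p over all genes). The adjusted p-values were 3.46e-05 for HDAC4, 9.68e-05 for KDM5B, 0.000538 for KDM4B, 0.00128 for SUV39H2, 0.00251 for KMT5A, 0.00299 for SUV39H1, 0.004 for EZH2, 0.00473 for KDM3A and 0.00734 for NSD2. They were 0.00914 for HDAC6, 0.00924 for SIRT7, 0.0122 for SETD6, 0.0139 for HDAC5, 0.0237 for PRMT3, 0.0238 for PRMT2, 0.0284 for KAT2A, 0.0468 for SIRT5 and 0.0498 for KDM7A. Groups of 2 arrays are too small for a check of single outlying arrays.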

How the results depend on the processing

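The counts of called members were recomputed under other settings, and 382 of 430 values stayed within 1.5 times. With lines as the units the average calls were 0 up and 3 down, and at an adjusted p of 0.01, 8 were up. Median centring left 0 calls in SKNO1 and 4 in NOMO1, and the mean of all probe sets 8 in NOMO1. Without probe sets ending in _x_at or _s_at, calls were 14 in GDM1, 9 in MOLM13, 8 in SKM1, 3 in THP1, 8 in NOMO1 and 1 in SHI1, and 11 changes differed between lines. Array weights gave 23 in MOLM13, 5 in SKM1, 13 in THP1 and 5 in SHI1. The stricter p of 0.01 gave 13 in GDM1, 9 in MOLM13, 0 in THP1, 0 in SKNO1, 2 in NOMO1 and 11 for differences between lines. Each line's own 4 arrays gave 12 in GDM1 and 0 in SKM1, THP1, SKNO1 and NOMO1. Leaving out 1 array gave 15 to 18 up and 21 to 26 down on average, 13 to 26 in GDM1, 9 to 17 in MOLM13, 10 to 18 in SKM1, 1 to 8 in THP1, 0 to 3 in SKNO1, 1 to 15 in NOMO1 and 0 in SHI1, with 15 to 22 changes that differed between lines. The replicate block gave 18 up and 24 down on average, 20 in GDM1, 14 in MOLM13, 17 in SKM1, 8 in THP1, 2 in SKNO1, 13 in NOMO1 and 0 in SHI1. Of 29 named members called on average, 19 stayed called without each line in turn and 28 without each single array, KDM4A being the exception. Over 1265 alternative values 53 lost the call and 3 turned sign: HDAC10 (-0.17) and KDM5B (-0.18) without probe sets ending in _x_at or _s_at, and KDM5B (-0.012) without NOMO1. The causes were not tested. Values near 2 to 4 on this scale lie at the bottom of its range of 2.13 to 16.8, and small changes there carry little information.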
